A study of Mus musculus with 8 samples.

Results

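The 10 Wnt ligand genes Wnt1, Wnt2, Wnt2b, Wnt4, Wnt5a, Wnt5b, Wnt9a, Wnt10a, Wnt10b and Wnt11 were followed by their read counts across genotype and culture time in 2 mouse dental papilla cell lines. They were taken by symbol from a table of 22609 genes that lists 19 Wnt genes in all, and 8 of the 10 passed the filter on low counts that precedes testing. The iBmp2 fx/fx cells (fx/fx below) are immortalized and carry floxed Bmp2 alleles, and in the iBmp2 ko/ko cells (ko/ko below), also immortalized, Bmp2 is deleted. Total RNA of each genotype was sequenced after 6, 24, 48 and 72 h of culture, in 1 library per genotype and time. The first time is 6 h in the sample labels, which were used here, but 8 h in the series' design text, and the study's methods name 6, 48 and 72 h and no 24 h libraries. Each genotype is represented by 1 cell line, so the Bmp2 deletion and any other difference between the lines cannot be told apart. Nothing in the labels says that the libraries of a genotype came from separate cultures, and the p-values measure the spread between these libraries, which includes any change with time.

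Wnt ligands are secreted glycoproteins that are lipid-modified by Porcn in the endoplasmic reticulum, carried to the cell surface by Wls and bound by Frizzled receptors. With the co-receptors Lrp5 and Lrp6, Frizzled stabilizes beta-catenin, which activates genes through the Tcf and Lef factors. With Ror2, Ryk or Ptk7, the ligands act without beta-catenin on cell shape, polarity and movement, a mode for which Wnt5a and Wnt11 are best known. In the tooth, Wnt and BMP signals pass between the dental epithelium and the papilla, the mesenchyme from which odontoblasts and pulp arise, and WNT10A is a gene of inherited tooth agenesis.

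Genes received 25890110 to 32415665 reads in each library. Bmp2 was at 0 in 7 libraries and had 1 read in the eighth, that of fx/fx cells at 24 h, so its level could not check the genotype labels. The 24 h library labelled ko/ko went against its label: over the 287 genes that differed between the genotypes at 6, 48 and 72 h (adjusted limit, below), it lay nearer to the fx/fx mean for 284 and nearer to the ko/ko mean for 3. It is therefore shown apart, tests were run on the 6 libraries of 6, 48 and 72 h (3 per genotype), and for the Wnt ligands the values with it are given beside them. Of 10 markers of dental mesenchyme, 8 were above 3 counts in every library, Runx2 and Twist1 among them, while Lhx8 and Barx1 had at most 1 read. Their summed level was 245 to 318 CPM in the fx/fx libraries, 151 to 211 CPM in the 3 ko/ko libraries and 229 CPM in the library shown apart. Dlx2, a homeobox factor of the branchial arches, was the 1 of the 8 tested that passed the unadjusted limit, as 4.04% of all genes did in that direction (49.4 ± 8.59 against 8.43 ± 8.19 CPM, log2 fold change -2.55, adjusted p = 0.118, or 0.00227 with culture time as a block), with 33.3 and 42.8 CPM in the 24 h libraries. With the block 2 of the 8 were lower at the adjusted limit, against 4.67% of all genes. Dlx1, of the same family as Dlx2, had a log2 fold change of -0.997 without the block (adjusted p = 0.288, or 0.0158 with the block). Pax9, a factor of tooth mesenchyme, had 1.90, 2.26 and 2.19 CPM in the fx/fx libraries and 2.65, 3.53 and 2.89 CPM in the ko/ko libraries, and the median log2 fold change over the 8 was -0.51. Of 8 markers of dental epithelium, Shh and Ambn were at 0. The summed level of the 8 was 0.750 to 1.84 CPM in the 4 fx/fx libraries, 0.441 to 0.994 CPM in the 3 ko/ko libraries and 1.78 CPM in the library shown apart. Krt14, a keratin and the 1 tested, was lower at the unadjusted limit, as 4.04% of all genes were (log2 fold change -1.385, adjusted p = 0.275, or 0.0414 with the block). At 24 h Krt14 had 0.571 and 1.22 CPM, the opposite direction. Of 7 odontoblast markers, the summed level was 128 to 248 CPM in the fx/fx libraries, 86.7 to 118 CPM in the 3 ko/ko libraries and 133 CPM in the library shown apart, with Nes making up most of it. Within this list Alpl, the alkaline phosphatase of mineralizing cells, was lower at the adjusted limit (42.3 ± 26.5 against 0.861 ± 0.472 CPM, log2 fold change -5.61, adjusted p = 0.0153) and Sp7, a factor of bone and odontoblast differentiation, at the unadjusted limit (log2 fold change -4.12, adjusted p = 0.0505, or 0.000834 with the block), against 1.29% and 4.04% of all genes. The other 2 tested, Nes (log2 fold change -0.53) and Phex (0.46), passed neither limit, and the median over the 4 was -2.32. Alpl had 37.6 and 12.8 CPM in the 24 h libraries. Sp7 passed the filter through the fx/fx libraries, where it had 0.561, 2.79 and 3.13 CPM at 6, 48 and 72 h. At 24 h Sp7 had 0.321 CPM in the fx/fx library and 0.667 CPM in the library labelled ko/ko, opposite to the other times. Dspp, which encodes the dentin matrix protein that defines odontoblasts, had at most 1 read. The summed level of 7 fibroblast markers was 8325 to 9807, 11689 to 17324 and 9159 CPM in the same order. Thy1, a surface protein of fibroblasts, was higher at the adjusted limit (log2 fold change 1.17, adjusted p = 0.0297, against 0.899% of all genes), and Col3a1, a collagen of soft tissue, at the unadjusted limit (1.51, adjusted p = 0.0534, or 0.00423 with the block, against 3.31% of all genes). At 24 h Thy1 had 80.2 and 101 CPM, and Col3a1 turned round, with 1173 and 900 CPM. Pdgfra went the other way at 6, 48 and 72 h, with 203, 241 and 239 CPM in the fx/fx libraries and 116, 226 and 147 CPM in the ko/ko libraries. The median log2 fold change over the 7 was 0.58. The part of these marker differences in the Wnt results was not tested.

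Wnt11, Wnt4, Wnt2 and Wnt1 were lower in the ko/ko cells, and Wnt5a was higher. The fitted level of Wnt11 was 17.0-fold lower, and that of Wnt4, the most abundant of the 4, was 6.31-fold lower. Wnt10b, in every library the most abundant of the 10 per exonic length, did not pass the test. Levels are given as CPM, the read count of a gene relative to the library's total, scaled by trimmed mean of M-values (TMM) factors, and fewer cells of a type and less RNA per cell cannot be told apart in these libraries. A gene passed the unadjusted limit with an absolute log2 fold change above 1 and p under 0.05 by edgeR's quasi-likelihood test, and the adjusted limit with the same fold change and p of at most 0.05 after Benjamini-Hochberg adjustment over 13121 genes.

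At the unadjusted limit, 4 of the 8 tested Wnt ligand genes were lower, where 4.04% of all genes were, and 1 was higher, where 3.31% of all genes were. At the adjusted limit, 3 were lower (Wnt11, Wnt4 and Wnt2), against 1.29% of all genes, and 0 were higher, against 0.899% of all genes. With culture time as a block, 4 were lower and 1 was higher at the adjusted limit, against 4.67% and 3.78% of all genes. The median log2 fold change was -1.82 over the 8 genes and 0.03 over all genes. Over all 8 libraries these medians were -0.92 and 0.03, and with the block over all 8 libraries -1.28 and 0.01. Wnt1 and Wnt2 passed the filter on low counts through the fx/fx libraries, so their presence among the tested genes is not independent of their difference.

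**Figure D1:**
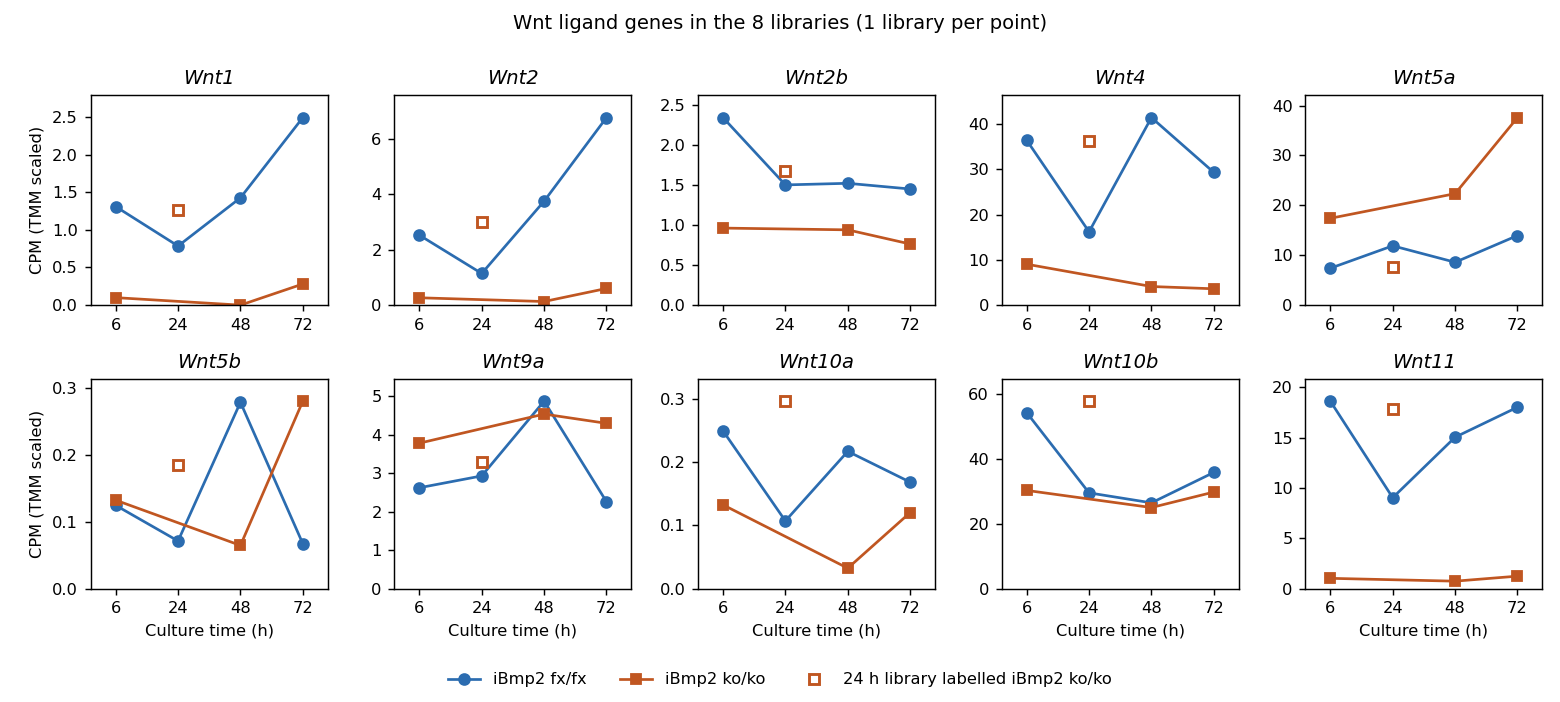
Level of each Wnt ligand gene (vertical axis, CPM scaled by TMM, from 0) at each culture time (horizontal axis, hours), with 1 library per point. The ko/ko libraries of 6, 48 and 72 h (filled squares) lie below the fx/fx libraries (circles) for Wnt1, Wnt2, Wnt2b, Wnt4, Wnt10a, Wnt10b and Wnt11 at each of these times and above them for Wnt5a, while the 24 h library labelled ko/ko (open square) lies with the fx/fx libraries for most genes.

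Wnt11 (ENSMUSG00000015957, mm9 chromosome 7, 105983622 to 106003705, plus strand) encodes a ligand known for guiding cell movement in the embryo and branching in the kidney. It measured 18.6, 15.0 and 18.0 CPM at 6, 48 and 72 h in the fx/fx cells and 1.03, 0.745 and 1.24 CPM in the ko/ko cells. The 2 groups lay far apart, and within each the libraries were close, with means of 17.2 ± 1.92 and 1.01 ± 0.250 CPM (SD, n = 3). The log2 fold change was -4.08 (standard error 0.30, adjusted p = 0.00425). Leaving out any 1 of the 6 libraries kept the gene past the adjusted limit, with adjusted p from 0.00261 to 0.0405. At 24 h the fx/fx library had 9.03 CPM, the lowest of its genotype, and the library labelled ko/ko had 17.9 CPM. With these libraries the groups overlapped, and over all 8 libraries the log2 fold change was -1.51 (standard error 0.95, adjusted p = 0.579). The 3′ end of Wnt11 shares 364 exonic bases with the pseudogene Gm8398 on the opposite strand, and the strand setting of the counting is not given in the sources used here.

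Wnt4 (ENSMUSG00000036856, chromosome 4, 136833404 to 136855641, plus strand) encodes a ligand needed for kidney tubules and the female reproductive tract. It measured 36.5, 41.5 and 29.3 CPM in the fx/fx cells and 9.04, 4.11 and 3.61 CPM in the ko/ko cells at 6, 48 and 72 h. The ko/ko libraries were all below the lowest fx/fx library, and the 6 h library was the highest among them. The log2 fold change was -2.66 (standard error 0.40, adjusted p = 0.0227). It missed the adjusted limit without the 6 h fx/fx library (adjusted p = 0.0644), the 48 h fx/fx library (0.117) or the 48 h ko/ko library (0.116). At 24 h the level was 16.2 CPM in the fx/fx library and 36.2 CPM in the library labelled ko/ko. Over all 8 libraries the log2 fold change was -1.20 (standard error 0.70, adjusted p = 0.552).

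Wnt2 (ENSMUSG00000010797, chromosome 6, 17938940 to 17980585, minus strand) encodes a beta-catenin activating ligand of lung and placenta. It measured 2.53, 3.75 and 6.77 CPM in the fx/fx cells and 0.265, 0.129 and 0.602 CPM in the ko/ko cells, the latter from 8, 4 and 15 reads. In both genotypes the 72 h library was the highest, and the groups did not overlap. The log2 fold change was -3.71 (standard error 0.64, adjusted p = 0.0339). It stayed past the adjusted limit without the 72 h ko/ko library (adjusted p = 0.0199) and missed it without any other 1 of the 6 libraries: without the 6, 48 or 72 h fx/fx library adjusted p was 0.0623, 0.134 and 0.0737, and without the 6 or 48 h ko/ko library 0.150 and 0.139. At 24 h the libraries had 1.14 CPM (fx/fx) and 3.0 CPM (labelled ko/ko), and over all 8 libraries the log2 fold change was -1.80 (standard error 0.90, adjusted p = 0.511).

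Wnt1 (ENSMUSG00000022997, chromosome 15, 98620288 to 98624268, plus strand) encodes the ligand best known from the midbrain and the dorsal neural tube from which neural crest arises. It had 42, 46 and 74 reads in the fx/fx libraries of 6, 48 and 72 h and 3, 0 and 7 reads in the ko/ko libraries. This gave 1.74 ± 0.652 CPM against 0.127 ± 0.142 CPM (SD, n = 3), and every ko/ko library was below every fx/fx library. The log2 fold change was -3.79 (standard error 0.85), which passed the unadjusted but not the adjusted limit (adjusted p = 0.0859). With culture time as a block it passed (log2 fold change -3.86, adjusted p = 0.00319), and without the 72 h ko/ko library it passed too (log2 fold change -5.03, adjusted p = 0.0322), while its adjusted p ranged from 0.000457 to 0.512 over the 14 alternatives run. At 24 h the libraries had 22 reads (fx/fx) and 34 reads (labelled ko/ko), and over all 8 libraries the log2 fold change was -1.85 (standard error 0.93, adjusted p = 0.512). Wnt1 lies 11706 bases from Wnt10b, its neighbour on the opposite strand, and 13194 bases from the lncRNA B130046B21Rik, which had 115 to 137 CPM in the fx/fx libraries, 124, 102 and 98.9 CPM in the ko/ko libraries of 6, 48 and 72 h and 133 CPM in the library shown apart.

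The promoter sequences of the 4 genes that were lower together are shown because the question of shared sequence features bears on them, with that of Wnt10b, the abundant neighbour of Wnt1 that passed no limit. They are the 250 bases before the first listed start site, from RefSeq on GRCm38.p6, a later build than mm9, 5′ to 3′ on the strand of the gene. Capitals mark, on either strand, the TATA box TATAAA, the GC box GGGCGG, the Tcf/Lef motif (written CTTTGAA, with the other forms spelled CTTTGAT, with a further form spelled CTTTGTA and with the last form spelled CTTTGTT), and the letters GGCGCC, a GC-rich motif that BMP-regulated Smad proteins are known to bind. Adjoining or overlapping matches form 1 run of capitals.
Wnt11, chr7:98834862-98835111, plus strand: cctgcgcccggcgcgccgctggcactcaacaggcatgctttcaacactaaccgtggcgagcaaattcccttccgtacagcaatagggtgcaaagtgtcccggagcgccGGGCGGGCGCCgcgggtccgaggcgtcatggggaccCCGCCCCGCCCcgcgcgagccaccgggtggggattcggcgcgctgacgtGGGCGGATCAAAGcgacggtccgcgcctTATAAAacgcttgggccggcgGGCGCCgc
Wnt4, chr4:137277385-137277634, plus strand: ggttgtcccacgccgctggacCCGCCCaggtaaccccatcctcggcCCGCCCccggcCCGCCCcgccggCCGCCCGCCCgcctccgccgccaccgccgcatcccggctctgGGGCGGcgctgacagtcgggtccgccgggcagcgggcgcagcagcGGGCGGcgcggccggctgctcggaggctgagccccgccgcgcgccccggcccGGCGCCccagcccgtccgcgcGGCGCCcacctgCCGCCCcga
Wnt2, chr6:18030446-18030695, minus strand: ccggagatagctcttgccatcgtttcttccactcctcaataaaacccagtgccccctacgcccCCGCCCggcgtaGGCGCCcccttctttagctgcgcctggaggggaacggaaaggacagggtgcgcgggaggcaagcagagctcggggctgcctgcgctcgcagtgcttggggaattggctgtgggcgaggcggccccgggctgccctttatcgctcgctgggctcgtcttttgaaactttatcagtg
Wnt1, chr15:98789607-98789856, plus strand: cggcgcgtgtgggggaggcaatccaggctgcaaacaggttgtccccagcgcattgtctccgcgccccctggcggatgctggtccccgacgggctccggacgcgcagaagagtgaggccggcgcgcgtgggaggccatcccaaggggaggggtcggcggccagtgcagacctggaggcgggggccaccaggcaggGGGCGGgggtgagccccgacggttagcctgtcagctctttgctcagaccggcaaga
Wnt10b, chr15:98778151-98778400, minus strand: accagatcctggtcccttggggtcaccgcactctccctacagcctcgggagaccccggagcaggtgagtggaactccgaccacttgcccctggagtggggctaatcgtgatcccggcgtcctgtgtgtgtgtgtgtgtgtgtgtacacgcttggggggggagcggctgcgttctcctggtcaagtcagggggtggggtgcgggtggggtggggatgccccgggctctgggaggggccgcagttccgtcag

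The promoter of the first listed Wnt11 start site held all 4 motifs, and that of the second listed site held none of them in its 250 bases. The first had a TATA box beginning 29 bases before the start, a Tcf/Lef motif at 51 bases before it, directly after a GC box, 4 GC boxes in all, of which 2 overlap, and 2 copies of GGCGCC, of which 1 overlaps a GC box. Wnt4 held 8 GC boxes, of which 2 overlap, and 2 copies of GGCGCC, Wnt2 held 1 GC box and 1 copy of GGCGCC, Wnt1 held 1 GC box, and Wnt10b held none of the motifs. Genes that passed neither limit held them too: in the same 250 bases Wnt9a had 5 GC boxes and 2 copies of GGCGCC, and Wnt2b had 3 and 2. Among 32851 promoter windows of 300 bases (250 before to 50 after the start), 13.6% held the TATA box, 35.7% the GC box, 16.9% a Tcf/Lef form and 11.9% GGCGCC. Over the same 300 bases, the GC content was 71.3% for Wnt11, 84.3% for Wnt4, 65.7% for Wnt2, 70.7% for Wnt1 and 66.3% for Wnt10b, against a median of 52.7% over all windows. A match describes these letters only. Of the 10 genes, 8 had an entry, and Wnt5a and Wnt10a were not among them.

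Wnt5a (ENSMUSG00000021994, chromosome 14, 29317936 to 29340633, plus strand) encodes the ligand that drives outgrowth of limbs, face and other mesenchyme mostly without beta-catenin. It was the one gene of the 10 with higher values in every ko/ko library of 6, 48 and 72 h than in any fx/fx library of these times, an arrangement found in 9.04% of all tested genes. It measured 7.39, 8.59 and 13.9 CPM in the fx/fx cells and 17.4, 22.3 and 37.6 CPM in the ko/ko cells. The log2 fold change was 1.38 (standard error 0.37), past the unadjusted limit but not the adjusted one (adjusted p = 0.137). With culture time as a block it passed the adjusted limit at nearly the same size (log2 fold change 1.37, adjusted p = 0.000794), and its adjusted p ranged from 0.000794 to 0.483 over 15 alternatives. Without the 72 h ko/ko library its log2 fold change was 1.00, just under the limit (adjusted p = 0.176).

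At 24 h Wnt5a also went the other way, with 11.9 CPM in the fx/fx library and 7.56 CPM in the library labelled ko/ko. Over all 8 libraries its log2 fold change was 1.05 (standard error 0.43, adjusted p = 0.483), which kept it past the unadjusted limit, where 2.08% of all genes were higher. It was the only one of the 8 tested genes to pass there, and 0 passed the adjusted limit. With culture time as a block over the 8 libraries, Wnt5a missed the unadjusted limit (log2 fold change 0.90), while Wnt1 (-2.51), Wnt2 (-2.51), Wnt4 (-1.90) and Wnt11 (-3.01) passed it, where 2.8% of all genes were lower, and 0 passed the adjusted limit. Within Wnt5a lies the antisense lncRNA Gm2670, which shares 358 exonic bases with it and had 1 to 31 reads per library, against 204 to 937 for Wnt5a. Without the strand setting, reads of the shared bases cannot be assigned to either.

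**Figure D2:**
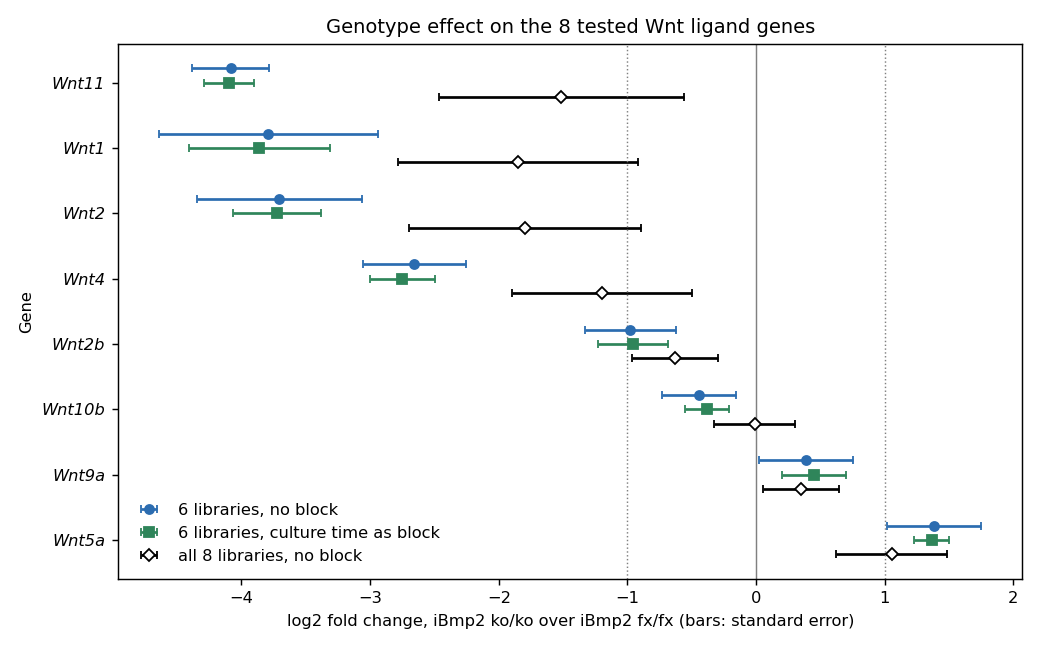
Log2 fold change of ko/ko over fx/fx (horizontal axis, bars are standard errors) for the 8 tested Wnt ligand genes (vertical axis), over 6 libraries without and with culture time as a block and over all 8 libraries without a block. The dotted lines mark a log2 fold change of -1 and 1, and for Wnt11 the estimate moves from -4.08 over 6 libraries to -1.51 over 8.

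Wnt2b (ENSMUSG00000027840, chromosome 3, 104747723 to 104764627, minus strand), a close relative of Wnt2, measured 2.34, 1.52 and 1.45 CPM in the fx/fx cells and 0.961, 0.939 and 0.762 CPM in the ko/ko cells. The groups did not overlap, but the log2 fold change of -0.98 (standard error 0.36, adjusted p = 0.276) stayed just under the limit on fold change. With the block its adjusted p was 0.0417 at a log2 fold change of -0.96, and adjusted p ranged from 0.0417 to 0.596 over 15 alternatives. It passed the unadjusted limit without the 48 h fx/fx library (log2 fold change -1.08) or the 72 h fx/fx library (-1.11). At 24 h the 2 libraries had 1.5 and 1.67 CPM, and over all 8 libraries the log2 fold change was -0.63 (standard error 0.33, adjusted p = 0.526). In all, 5 of the 8 tested genes (Wnt1, Wnt2, Wnt2b, Wnt4 and Wnt11) had their 3 ko/ko values below their 3 fx/fx values, where 11% of all tested genes did. With the 24 h libraries included, the groups overlapped for each of the 10 genes. The share of all genes that did so was not computed. As given above, the 24 h library labelled ko/ko lay nearer to the fx/fx mean for 284 of 287 genes.

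Wnt10b (ENSMUSG00000022996, chromosome 15, 98602184 to 98608581, minus strand) encodes a beta-catenin activating ligand known for favouring bone over fat formation. It measured 54.4, 26.5 and 35.9 CPM in the fx/fx cells and 30.3, 25.1 and 29.8 CPM in the ko/ko cells. The groups overlapped, the 6 h fx/fx library stood above the rest, and the log2 fold change was -0.44 (standard error 0.29, adjusted p = 0.570). Without the 6 h fx/fx library it was -0.13, and over all 8 libraries -0.01 (standard error 0.32, adjusted p = 0.994). The library labelled ko/ko of 24 h had 57.9 CPM, the highest of the 8, against 29.6 CPM in the fx/fx library of that time.

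Wnt9a (ENSMUSG00000000126, chromosome 11, 59120430 to 59147054, plus strand), a ligand of developing joints, measured 2.62, 4.87 and 2.26 CPM in the fx/fx cells and 3.78, 4.53 and 4.29 CPM in the ko/ko cells. These ranges overlapped, with a log2 fold change of 0.39 (standard error 0.36, adjusted p = 0.724), and the 24 h libraries had 2.93 and 3.3 CPM. Over all 8 libraries the log2 fold change was 0.35 (standard error 0.29, adjusted p = 0.671).

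Wnt5b (ENSMUSG00000030170, chromosome 6, 119382549 to 119494336, minus strand) and Wnt10a (ENSMUSG00000026167, chromosome 1, 74838090 to 74850753, plus strand) did not pass the filter and were not tested. Wnt5b had 4, 9 and 2 reads in the fx/fx libraries of 6, 48 and 72 h, 4, 2 and 7 in the ko/ko libraries, and 2 and 5 at 24 h. Wnt10a had 8, 7 and 5 reads in the fx/fx libraries, 4, 1 and 3 in the ko/ko libraries, and 3 and 8 at 24 h. Wnt10a was lower in the 3 ko/ko libraries and Wnt5b overlapped, but a difference of a few reads was not detectable at this depth, where 3 reads correspond to 0.0930 to 0.120 CPM.

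The libraries of each culture time were also compared with each other (95% intervals from the exact binomial distribution of the reads, which cover counting error only). At 6, 48 and 72 h the Wnt11 level of the ko/ko library was 0.0552 (0.0371 to 0.0791), 0.0495 (0.0311 to 0.0752) and 0.0690 (0.0464 to 0.0991) times that of the fx/fx library. For Wnt4 the ratio was 0.248 (0.217 to 0.283) at 6 h, 0.0992 (0.0820 to 0.119) at 48 h and 0.123 (0.0979 to 0.153) at 72 h. The Wnt4 interval at 6 h thus lay above those of the later times. For Wnt2 the ratios were 0.105, 0.0345 and 0.0889, and for Wnt1 they were 0.0759 (0.0150 to 0.237) at 6 h and 0.113 (0.0438 to 0.244) at 72 h, with an upper bound of 0.0872 at 48 h, where 0 reads were counted. For Wnt5a the ratio was 2.35 (2.01 to 2.75), 2.60 (2.26 to 3.0) and 2.70 (2.40 to 3.03). The interval of Wnt10b held 1 at 48 h (0.856 to 1.04) and lay below it at 6 h (0.515 to 0.605) and 72 h (0.756 to 0.914).

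At 24 h these ratios turned round. The library labelled ko/ko had 1.98 times (1.70 to 2.31) the Wnt11 level of the fx/fx library, 2.24 times (2.00 to 2.51) for Wnt4, 2.63 times (1.73 to 4.09) for Wnt2 and 1.96 times (1.80 to 2.13) for Wnt10b. The intervals of Wnt1 (0.912 to 2.88) and Wnt2b (0.714 to 1.74) held 1. For Wnt5a the ratio was 0.636 (0.532 to 0.759). Against the 4 fx/fx libraries, this library lay within their range for 8 of the 10 genes and above it for Wnt10a and Wnt10b. The fx/fx library of 24 h was itself the lowest of its genotype for Wnt1, Wnt2, Wnt4, Wnt10a and Wnt11.

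**Figure D3:**
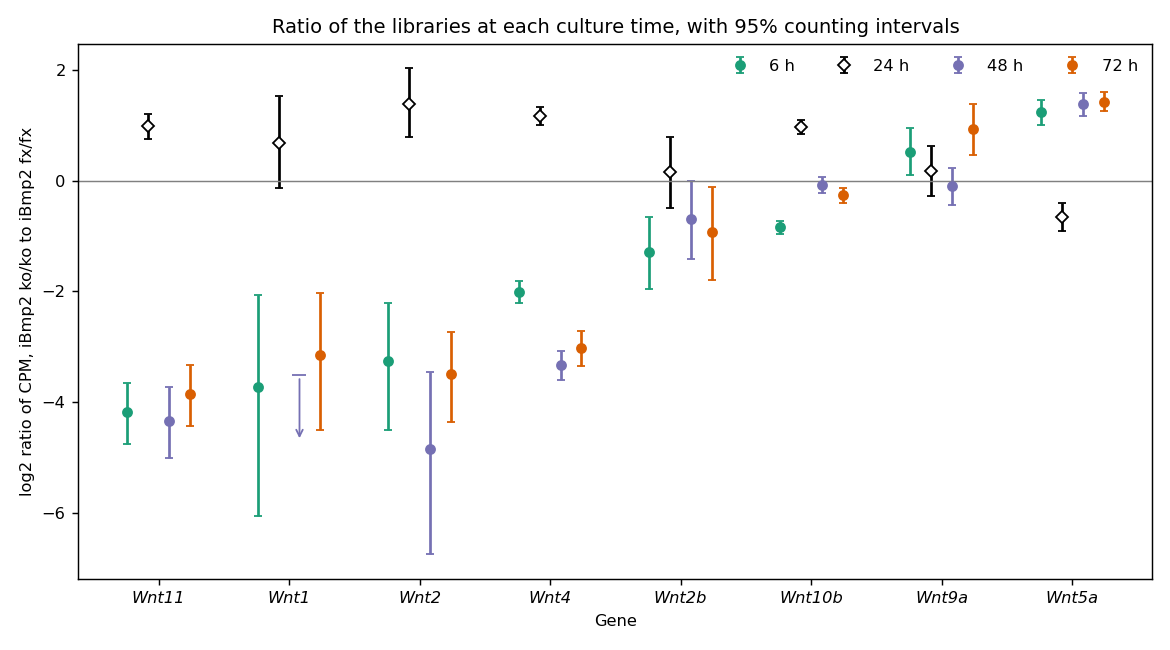
Log2 ratio of the CPM of the 2 libraries of each culture time, ko/ko to fx/fx (vertical axis), for the 8 tested Wnt ligand genes (horizontal axis), with 95% counting intervals and an arrow below the upper bound for Wnt1 at 48 h, where 0 reads were counted. The 24 h points (open diamonds) lie above 0 for Wnt11, Wnt1, Wnt2 and Wnt4, whose points of 6, 48 and 72 h lie below -2, and below 0 for Wnt5a.

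To compare levels between genes, CPM were divided by the exonic length of each gene in kilobases (RPKM). In the fx/fx cells the order over 6, 48 and 72 h was Wnt10b (16.7 ± 6.08 RPKM), Wnt4 (8.52 ± 1.45), Wnt11 (4.74 ± 0.528), Wnt2 (1.93 ± 0.968), Wnt5a (1.28 ± 0.446), Wnt9a (0.976 ± 0.425), Wnt1 (0.729 ± 0.272), Wnt2b (0.495 ± 0.139), Wnt10a (0.0858 ± 0.0165) and Wnt5b (0.0598 ± 0.0417) (SD, n = 3). The ranges of neighbours overlapped from Wnt2 through Wnt2b and between Wnt10a and Wnt5b, and were separate elsewhere in that order. In the ko/ko cells Wnt10b (12.2 ± 1.25 RPKM) was followed by Wnt5a (3.29 ± 1.35), Wnt4 (1.33 ± 0.716) and Wnt9a (1.26 ± 0.116), and the ranges of Wnt4 and Wnt9a overlapped. Wnt11 (0.277 ± 0.0689), Wnt2b (0.248 ± 0.0305) and Wnt2 (0.147 ± 0.108) came next, and Wnt5b, Wnt1 and Wnt10a were lowest, at means of 0.0607, 0.0530 and 0.0385 RPKM, with each neighbour's range overlapping the next. Wnt5a thus moved from the fifth place to the second, and Wnt11 from the third to the fifth.

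The summed level of the 10 genes was 35.5 ± 5.35 RPKM in the fx/fx cells and 18.9 ± 2.20 RPKM in the ko/ko cells (SD, n = 3). Wnt4, Wnt11, Wnt2 and Wnt1 together made up 45.6 ± 7.72% of that sum in the fx/fx cells and 9.53 ± 3.39% in the ko/ko cells. Wnt10b made up 46.0 ± 9.83% and 64.6 ± 2.98%, and Wnt5a 3.68 ± 1.46% and 17.3 ± 5.78%. At 24 h the sum was 22.8 RPKM in the fx/fx library and 42.8 RPKM in the library labelled ko/ko, with 31.6% and 36.0% from Wnt4, Wnt11, Wnt2 and Wnt1. The shares depend on each other, since they add up to the whole.

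**Figure D4:**
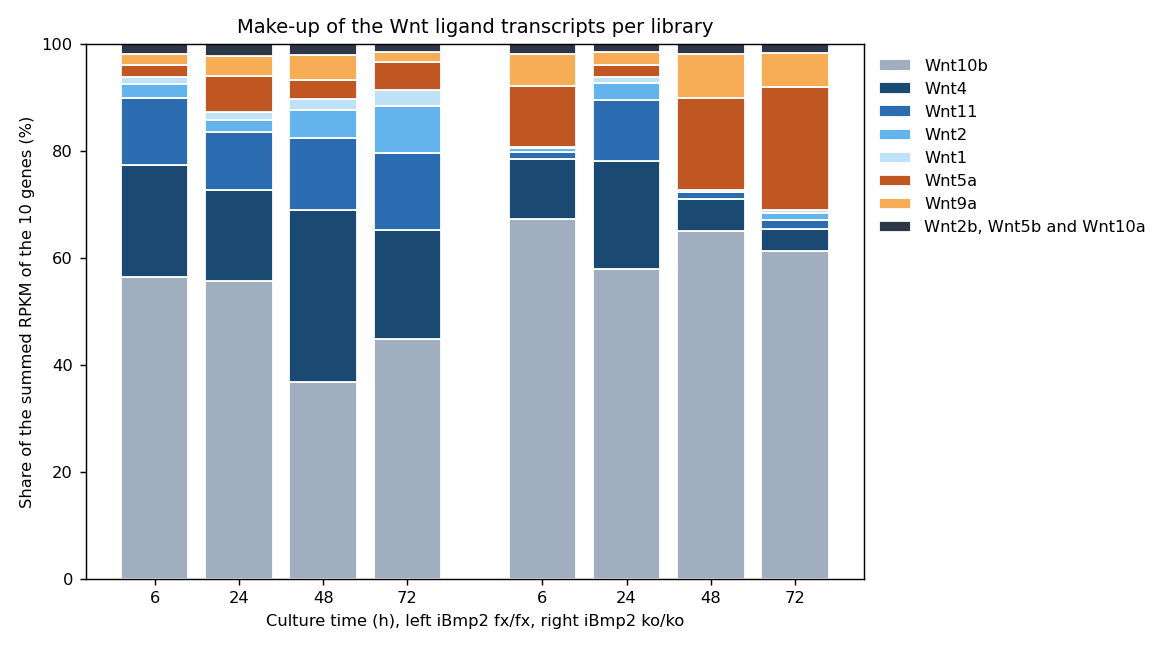
Share of the summed RPKM of the 10 genes (vertical axis, %) by gene in each library (horizontal axis, culture time in hours, fx/fx left and ko/ko right). Wnt10b takes the largest share in every library, and the blue segments of Wnt4, Wnt11, Wnt2 and Wnt1 shrink to 7.53 to 13.4% in the ko/ko libraries of 6, 48 and 72 h but stand at 36.0% in the library of 24 h with that label.

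Culture time was tested as the slope on the log2 of hours with genotype in the model, expressed as the log2 change from 6 to 72 h. None of the 8 genes passed either limit with edgeR, where 7.64% of all genes passed the unadjusted limit, 0 the adjusted one and 2775 had an unadjusted p under 0.05, and 1 of the 8 had an unadjusted p under 0.05. That gene was Wnt5a, with a log2 change of 0.80 (standard error 0.29, adjusted p = 0.212). Its levels at 72 h were above those at 6 h in both genotypes, 13.9 against 7.39 CPM and 37.6 against 17.4 CPM. The other estimates ran from -0.78 for Wnt4 (standard error 0.32, adjusted p = 0.240) to 1.00 for Wnt2 (standard error 0.59, adjusted p = 0.349). The Wnt4 level was 36.5 CPM at 6 h and 29.3 CPM at 72 h in the fx/fx cells and 9.04 and 3.61 CPM in the ko/ko cells. A different slope in the genotypes was not found by edgeR for any of the 8 genes, with 0 of them at an unadjusted p under 0.05. That test has 2 residual degrees of freedom, and 0.48% of all genes passed the unadjusted limit in it. The smallest p was that of Wnt4 (0.0685, adjusted p = 1).

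Of the 9 Wnt genes outside the 10, only Wnt6, which lies 6196 bases from Wnt10a and is known from epithelia, was tested. It had 58, 70 and 27 reads in the fx/fx libraries of 6, 48 and 72 h and 19, 12 and 1 in the ko/ko libraries, with 26 and 40 at 24 h. Its log2 fold change was -2.15 (standard error 0.75), past the unadjusted limit but not the adjusted one (adjusted p = 0.259, or 0.0104 with the block). Like Wnt1 and Wnt2, it passed the filter on low counts through the fx/fx libraries. Wnt3 and Wnt9b were at 0 in every library. Wnt3a, a neighbour of Wnt9a at 16175 bases, had 1 read in all.

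Among the 6 genes of Wnt acylation and secretion, all tested, 1 was lower and 0 higher at either limit, where the unadjusted limit was passed by 4.04% (lower) and 3.31% (higher) of all genes, and the adjusted one by 1.29% and 0.899%. It was Notum, which encodes the enzyme that removes the lipid from Wnt ligands, with 20.1 ± 8.95 CPM in the fx/fx cells and 0.738 ± 0.229 CPM in the ko/ko cells (log2 fold change -4.75, standard error 0.48, adjusted p = 0.00765). At 24 h it had 9.25 and 8.45 CPM. Wls, the carrier of Wnt ligands, had 523 ± 70.0 and 321 ± 66.2 CPM (log2 fold change -0.69, adjusted p = 0.241) and 431 and 598 CPM at 24 h, and Porcn, which attaches the lipid, had a log2 fold change of -0.08.

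Of 16 Frizzled receptors and co-receptors, 14 were tested, and 3 were lower (4.04% of all genes) and 1 higher (3.31% of all genes) at the unadjusted limit. Only Fzd7 passed the adjusted limit (156 ± 20.9 against 58.0 ± 11.1 CPM, log2 fold change -1.42, adjusted p = 0.0214), where 1.29% of all genes were lower, while 3 were lower and 1 higher with the block, against 4.67% and 3.78% of all genes. The others were Fzd4 (log2 fold change -1.27, adjusted p = 0.00236 with the block), Fzd6 (-1.05, 0.0104) and Fzd3 (1.32, 0.00595), all Wnt receptors. At 24 h Fzd7 had 118 CPM in the fx/fx library and 183 CPM in the library labelled ko/ko, and Fzd6 had 74.9 and 113 CPM, the opposite direction to the other times. Fzd4 (59.0 and 43.5 CPM) and Fzd3 (3.03 and 4.45 CPM) kept their direction at 24 h. The median over the 14 was a log2 fold change of -0.36, against 0.03 over all genes.

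Of 14 Wnt inhibitor genes, most of them secreted, 4 were tested, among them Kremen1, which encodes a membrane protein. Of the 4, 1, Sfrp2, which binds Wnt ligands outside the cell, was lower at the unadjusted limit, as 4.04% of all genes were (34.0 ± 26.0 against 6.35 ± 1.48 CPM, log2 fold change -2.40, adjusted p = 0.142, or 0.00777 with the block). At 24 h Sfrp2 had 45.0 CPM in the fx/fx library and 7.23 CPM in the library labelled ko/ko, the same direction as at the other times. Dkk1 and Sostdc1 were at 0 in every library. Of 9 R-spondins and their receptors, 6 were tested, and Lgr6, a receptor of R-spondins, was lower at the adjusted limit, as 1.29% of all genes were (38.2 ± 15.3 against 3.41 ± 2.52 CPM, log2 fold change -3.48, adjusted p = 0.0282). Rspo3, a secreted enhancer of Wnt signals, was higher at the unadjusted limit, as 3.31% of all genes were (log2 fold change 1.11, adjusted p = 0.260, or 0.0139 with the block). At 24 h Lgr6 had 18.3 CPM in the fx/fx library and 24.5 CPM in the library labelled ko/ko, and Rspo3 had 2.25 and 0.926 CPM, both opposite to the other times. Rspo2, of the same family as Rspo3, had a log2 fold change of 2.10 (adjusted p = 0.369, or 0.00103 with the block). It had 2.21 and 0.815 CPM at 24 h, also opposite to the other times. With the block 1 of the 6 was lower and 2 were higher at the adjusted limit, against 4.67% and 3.78% of all genes.

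Of 12 beta-catenin target genes, 8 were tested, and 4 were lower (4.04% of all genes) and 1 higher (3.31% of all genes) at the unadjusted limit. Of these, 2 lower genes passed the adjusted limit (1.29% of all genes), and with the block 4 were lower and 1 higher (4.67% and 3.78% of all genes). Those past the adjusted limit were Tcf7, a factor that carries beta-catenin signals to DNA (44.6 ± 10.1 against 3.67 ± 1.96 CPM, log2 fold change -3.58, adjusted p = 0.0120), and Nkd2, a feedback inhibitor (1.17 ± 0.315 against 0.152 ± 0.0165 CPM, log2 fold change -2.90, adjusted p = 0.0214), which passed the filter on low counts through the fx/fx libraries. Lef1, a factor related to Tcf7, had 10.9 ± 1.94 and 3.18 ± 1.21 CPM (log2 fold change -1.77, adjusted p = 0.0508, or 0.00238 with the block). Bambi, a decoy receptor of the TGF-β family, was higher at the unadjusted limit (log2 fold change 1.65, adjusted p = 0.0624, or 0.00792 with the block). Axin2, the most used readout of beta-catenin signaling, was the fourth lower gene and is named outside the rule for named genes, after its values were seen (log2 fold change -1.21, standard error 0.36, adjusted p = 0.184, or 0.0264 with the block). At 24 h Tcf7 had 23.8 CPM in the fx/fx library and 50.0 CPM in the library labelled ko/ko, the same turn as Wnt4, and Lef1 had 5.96 and 13.2 CPM, while Nkd2 (0.393 and 0.296 CPM) and Bambi (1.21 and 2.19 CPM) kept their direction.

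**Figure D5:**
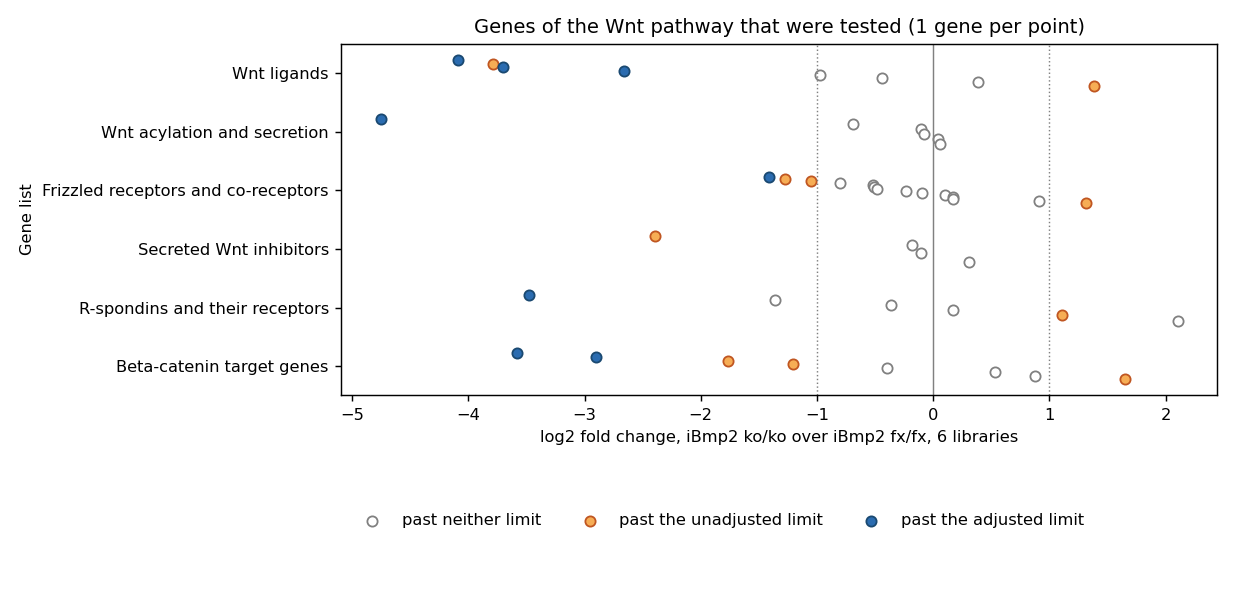
Log2 fold change of ko/ko over fx/fx in the 6 libraries (horizontal axis) for the tested genes of the Wnt pathway by list (vertical axis), with 1 gene per point and the colour giving the limit passed. The Wnt ligands spread from -4.08 to 1.38, and the most negative point is Notum at -4.75.

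The genes whose profile was most like that of the 3 Wnt ligands with the highest mean CPM over the 8 libraries were ranked by Pearson's r of log2 CPM over the 7 libraries other than the 24 h library labelled ko/ko, among 10939 genes. These libraries share genotype and culture time, so r is a description. Wnt11, with 17.2 CPM in the fx/fx cells against 9.97 CPM for Wnt5a, was not among these 3 because its mean over both genotypes was lower. For Wnt4 they were Baalc (r = 0.988), Glis1 (0.987) and Tcf7 (0.987). For Wnt5a they were Vti1a (0.996), Fam149a (0.991) and Reps1 (0.990), and for Wnt10b they were Alg14 (0.968), 3110043O21Rik (0.966) and Slc45a3 (0.960).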

How the data were processed

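RNA of the 2 dental papilla cell lines was sequenced in 8 libraries, 1 per genotype and culture time. The submitters' processing notes name CASAVA 1.8.2, TopHat2 2.0.8b and HTSeq, and the authors aligned the reads to mm9 and deposited unnormalized read counts per gene symbol and per lncRNA symbol. The annotation and the strand setting are not given in the sources used here. Summary rows that name no gene were left out. Of all rows' counts they held 41.3 to 49.6% per library for reads aligned to several places, 8.22 to 12.5% for reads on no gene and 0.439 to 0.532% for ambiguous reads.

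Groups came from the labels. Counts were tested in R 4.3.3 with edgeR 4.0.16 (TMM, filterByExpr with at least 10 counts and 15 in total, quasi-likelihood test, Benjamini-Hochberg over all genes). CPM used TMM factors, and RPKM used exon lengths of GENCODE M1 on mm9. The members and lists were chosen with earlier results of these data known. The labels' culture times pair the libraries: deviations from the genotype mean correlated at 0.713, 0.536 and 0.841 for libraries of the same time (6, 48 and 72 h), so values with culture time as a block stand beside results whose call they change.

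Alternatives were all 8 libraries, 7 libraries, the block, DESeq2 1.42.0, limma 3.58.1 (log2 CPM, offset 0.5), DESeq2's size factors, other filters, time in hours and leaving out each library, the last added after seeing the data for the interaction. Genes named were the 10 members, at most 4 per list with the smallest p, the 3 genes most like each of the 3 members with the highest CPM (mean count of at least 100), and Bmp2. Axin2 and markers or inhibitors named for being present in the libraries, missing from them or of the other direction (Pax9, Pdgfra, Twist1, Lhx8, Barx1, Dspp, Shh, Ambn, Dkk1, Sostdc1) fall outside this rule and were chosen after their values were seen. Simulated data with known changes were used to try both tests. Python 3.11.15 with pandas 2.3.3, scipy 1.17.1 and matplotlib 3.10.9 made the summaries.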

Additional observations from a re-analysis of the deposited data

Results flagged for a closer look

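The 20 groups of 4 libraries (10 genes in each genotype) share libraries, and the libraries of a group differ in culture time. Dixon's 95% critical value for 4 samples is therefore used only to describe them. In 5 groups a library lay far from the other 3, with a gap to the nearest that took a larger part of the range than this value. In the iBmp2 ko/ko group it was the 24 h library each time: for Wnt11 the gap took 0.971 of the range, for Wnt10b 0.839, for Wnt2 0.836 and for Wnt4 0.833. In the iBmp2 fx/fx group it was the 6 h library for Wnt2b, with 0.920 of the range.

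For 8 of the 10 genes the log2 ratio of the library labelled iBmp2 ko/ko to the iBmp2 fx/fx library had one sign at 6, 48 and 72 h and the opposite sign at 24 h. At 24 h it was 0.68 for Wnt1, 1.39 for Wnt2, 0.15 for Wnt2b, 1.16 for Wnt4, 1.47 for Wnt10a, 0.97 for Wnt10b, 0.98 for Wnt11 and -0.65 for Wnt5a. The counting intervals of Wnt1, Wnt2b and Wnt10a included equal levels, and Wnt10a had only 3 and 8 reads. The share of all genes with such a turn was not computed. The 24 h library labelled iBmp2 ko/ko lay nearer to the iBmp2 fx/fx mean for 284 of the 287 genes that differed between the genotypes. With 1 library per genotype and time, the difference between the times was not tested, and a change at 24 h cannot be told apart from a property of these libraries.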

How the results depend on the processing

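The sign of the genotype estimate held for each of the 8 tested Wnt ligand genes under every alternative run. For Wnt10b the estimate came near no change, with a log2 fold change of -0.011 over all 8 libraries and -0.038 with the block over all 8. The calls depended on the 24 h library labelled iBmp2 ko/ko. In 7 libraries, without it but with the 24 h iBmp2 fx/fx library, 5 genes passed the unadjusted and 3 the adjusted limit, as in the 6 libraries. At the unadjusted limit, 5 of the genes passed in the 6 libraries, 1 over all 8 libraries, 4 over all 8 with culture time as the replicate block and 3 with at least 10 counts in every library, a filter that left 6 of the 8 genes and removed Wnt1 and Wnt2, and leaving out 1 library gave 4 to 6. At the adjusted limit, 3 passed in the 6 libraries, 5 with the replicate block, 5 with DESeq2, 0 over all 8 libraries and 0 with the block over all 8, and leaving out 1 library gave 1 to 4. Over all genes, 964 passed the unadjusted limit and 463 did over all 8 libraries, 1029 in the 7 libraries, 663 with the block over all 8 and 667 with at least 10 counts in every library. Leaving out 1 library gave 781 to 1343. At the adjusted limit, 287 genes passed, 412 in the 7 libraries, 1109 with the replicate block, 659 with DESeq2, 144 with at least 10 counts in every library, 0 over all 8 libraries and 37 with the block over all 8, and leaving out 1 library gave 9 to 378. Over all 8 libraries 1336 genes had an unadjusted p under 0.05.

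For culture time, 1002 genes passed the unadjusted limit and 1756 with time in hours, and leaving out 1 library gave 436 to 1752. At the adjusted limit 0 passed, 1 over all 8 libraries and 4 with time in hours, and leaving out 1 library gave 0 to 196. Of the Wnt ligand genes 0 passed the unadjusted limit, and 0 to 1 did with 1 library left out, likewise 0 to 1 for the interaction. For culture time, Wnt4 passed without the 6 h iBmp2 fx/fx library (log2 change -1.36) but had -0.18 without the 6 h iBmp2 ko/ko library. Wnt2 passed without the 48 h iBmp2 ko/ko library (1.21). The sign of the change with time turned for Wnt9a without the 48 h iBmp2 fx/fx library (-0.0038, with 0.55 the highest without 1 library) and for Wnt11 without the 6 h iBmp2 fx/fx library (0.097) or the 48 h iBmp2 ko/ko library (0.013), with -0.28 the lowest without 1 library. The cause of these differences was not tested. Depth limits Wnt5b and Wnt10a, which had at most 9 reads in any library.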
